A study of Kryptolebias marmoratus with 5 samples.

Results

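The myogenic regulatory factors are the related basic helix-loop-helix transcription factors that commit mesodermal cells to skeletal muscle. Genes were taken by the symbols *myod1*, *myf5*, *myf6* and *myog*. The annotation of the mangrove killifish genome (ASM164957v2) holds 3 of these, *myf5*, *myf6* and *myog*, among the 22090 genes with reads assigned here, and no gene with the symbol *myod1*. One further gene, *LOC108250023*, is named myoblast determination protein 1 homolog in the product names of the deposited tables. It is described beside the members as the MyoD homolog, and it was not counted as one of them.

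RNA-seq was read from 5 libraries of pooled whole *Kryptolebias marmoratus* embryos, with 1 library for each group. The *stl* (shorttail) library holds homozygous embryos of an ENU-mutagenised line with a missense allele of *noto*, and the *btl* (balltail) library homozygous embryos of a line with a missense allele of *msgn1*. The *stl*-sibling and *btl*-sibling libraries come from embryos of the same lines with a normal phenotype and can include carriers of the mutant allele. WT is the parental *Hon9* strain. All embryos were labelled stage 17, with stages 16 to 18 possible, and each pool held 20 to 25 embryos without further treatment. Reads assigned to genes totalled between 9147612 (*btl*) and 12220184 (*btl*-sibling). Because there are no replicates, no p-value is given for any difference. Intervals are exact 95% intervals that cover counting error only, so they compare libraries and not genotypes. Fewer muscle cells and less RNA per muscle cell cannot be told apart in whole embryos. A missense allele does not by itself fix the RNA level of its gene, so read counts of the mutated genes were not used to check the labels. *noto* had 3.71 CPM (read counts scaled to library depth with TMM factors) in *stl*, against 7.56 CPM in *stl*-sibling, and *msgn1* had 258.5 CPM in *btl*, against 12.4 CPM in *btl*-sibling.

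In vertebrate somites, *Myf5* and *MyoD* act early, as determination factors that bind E-box sequences together with E proteins and open muscle genes. Myogenin, the product of *myog*, acts later, when myoblasts leave the cell cycle and differentiate, and *Myf6* (Mrf4) is in zebrafish a late factor of differentiating fibres. Id proteins and other inhibitors hold these factors in check, and MEF2 proteins work with them on muscle promoters. *myf5* was accordingly taken as the early member and *myog* and *myf6* as the late members.

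*myf6* (gene 108233209, linkage group 18, 8295416 to 8297546) and *myf5* (gene 108233204, linkage group 18, 8303364 to 8306070) are neighbours, with 5817 bases between them. *myog* (gene 108235609) lies on linkage group 4 from 17230249 to 17232413, and the MyoD homolog on linkage group 11 from 1819157 to 1827916. *myf5*, *myf6* and *myog* have 1 annotated coding sequence each, of 723, 717 and 816 nucleotides, and the MyoD homolog has 2. The *myog* model is marked as a low-quality protein in the deposited product names.

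*myf5*, *myog* and the MyoD homolog were readily detected in phenotypically normal embryos, and *myf6* was close to undetected. Levels are given as TPM, which is scaled to coding sequence length and can be compared between genes. Between libraries TPM widens the gap to *btl*, since in TPM the median log2 fold change of all genes in *btl* against *btl*-sibling was -0.55, so fold changes below come from CPM. *myf5*, the early factor, had 13.7 TPM in *stl*, against 19.4 in *stl*-sibling. In *btl* its level was 2.78 TPM, against 20.8 in *btl*-sibling and 15.2 in WT. The *btl* library was thus the lowest for *myf5*, and its interval (1.78 to 4.14 TPM) overlapped that of no other library. The intervals of *stl* (11.4 to 16.4) and WT (12.8 to 17.9) overlapped.

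*myog*, the differentiation factor, had 8.76 TPM in *stl*, against 24.4 in *stl*-sibling. In *btl* its level was 1.60 TPM, against 19.1 in *btl*-sibling and 11.8 in WT. *btl* was again lowest, and *stl*-sibling was highest. The intervals of *stl* (7.03 to 10.8) and WT (9.84 to 14.0) overlapped here too.

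The MyoD homolog had 7.86 TPM in *stl*, against 19.6 in *stl*-sibling. In *btl* its level was 2.85 TPM, against 17.5 in *btl*-sibling and 11.9 in WT. Its order of libraries was that of *myog*, from *btl* through *stl*, WT and *btl*-sibling to *stl*-sibling. For the MyoD homolog the intervals of *btl*-sibling (15.0 to 20.3 TPM) and *stl*-sibling (16.9 to 22.4 TPM) overlapped, whereas those of *stl* (6.20 to 9.79) and WT (9.90 to 14.1) did not.

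Within *btl* the 3 genes could not be ordered beyond counting error, with intervals of 1.78 to 4.14 TPM for *myf5*, 1.90 to 4.13 for the MyoD homolog and 0.916 to 2.60 for *myog*. In *stl*, *myf5* was the highest of them, and its interval lay above those of *myog* and the MyoD homolog. In *stl*-sibling *myog* had the highest value, but its interval (21.5 to 27.6 TPM) overlapped those of *myf5* (16.7 to 22.6) and the MyoD homolog. In *btl*-sibling the 3 intervals overlapped. In WT, *myf5* had the highest value, and its interval overlapped those of both other genes.

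For *myf6* the reads numbered 5 (*stl*), 2 (*stl*-sibling), 1 (*btl*), 1 (*btl*-sibling) and 3 (WT). These correspond to between 0.115 and 0.583 TPM, and the 5 intervals overlapped. For *stl* against *stl*-sibling the ratio of CPM was 2.57, with an interval of 0.420 to 27.0, so no difference was detectable at this depth. Its mean of 0.208 CPM was under the minimum of 2 CPM used for comparisons across genes, and it is left out of them.

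**Figure D1:**
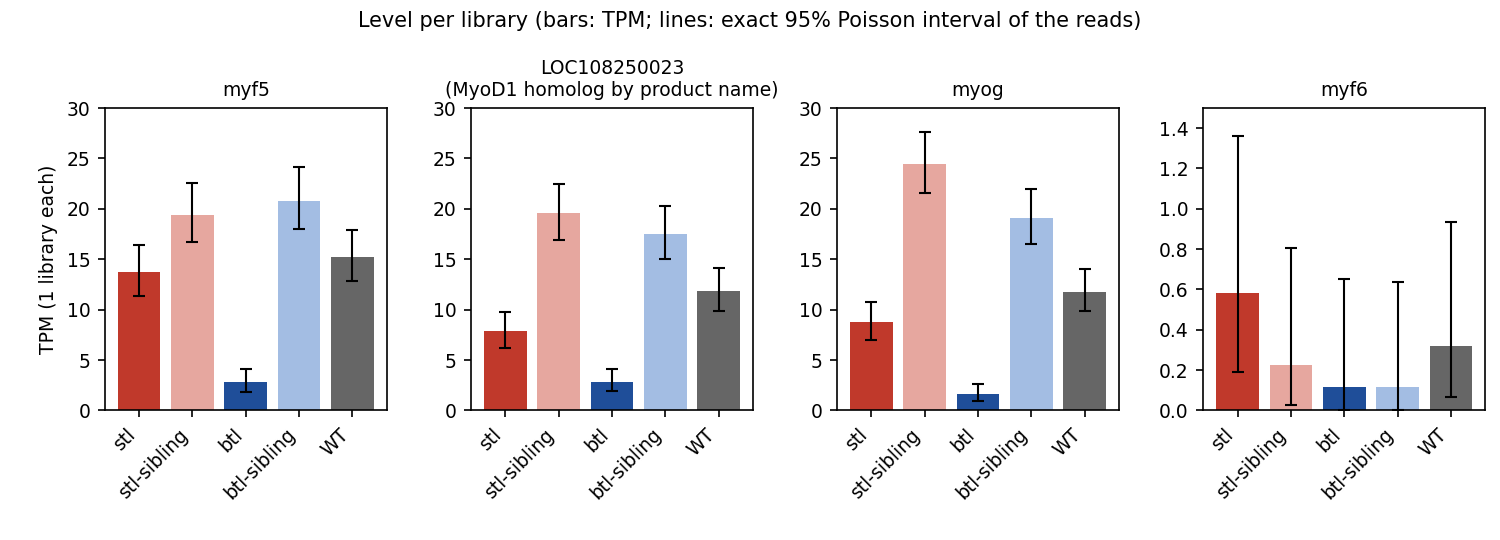
Levels of *myf5*, the MyoD homolog *LOC108250023*, *myog* and *myf6* as TPM (vertical axes, with a smaller scale for *myf6*) in each of the 5 libraries (horizontal axes), with exact 95% Poisson intervals of the reads as lines. In *btl* the first 3 genes lie between 1.60 and 2.85 TPM, below every other library, and *myf6* stays at or below 0.583 TPM in all of them.

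The *btl* embryos, compared with their siblings to learn how muscle genes differ in the *msgn1* mutant, had several-fold less RNA of all 3 readily detected factors. *myog* was covered by 16 reads in *btl*, against 195 in *btl*-sibling, and its CPM was 7.92-fold lower (interval 4.76 to 14.1). *myf5* was covered by 24 reads in *btl*, against 184 in *btl*-sibling, 4.97-fold lower (interval 3.25 to 7.98). The MyoD homolog was covered by 28 reads in *btl*, against 177 in *btl*-sibling, 4.11-fold lower (interval 2.75 to 6.36). The 3 intervals overlapped one another.

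Of the members, *myf5* and *myog* were thus at least 2-fold lower in *btl* than in its sibling, against 3.27% of the 15362 genes kept, and 4.33% of genes were at least 2-fold higher. That split depended on the scaling. Here 503 genes were lower and 665 higher, whereas without TMM factors 847 were lower and 321 higher, in TPM 2127 lower and 64 higher, and with the length trend removed 486 lower and 255 higher. The log2 fold changes, which were computed after adding 0.5 CPM and so understate changes of low genes, were -2.70 for *myog*, -2.13 for *myf5* and -1.89 for the MyoD homolog. Ranked from the lowest of the 15362 genes, *myog* was at 17, *myf5* at 53 and the MyoD homolog at 88. Short coding sequences ran higher in *btl* in general, and the values of the gene lists below include this trend. The 768 genes with coding sequences of 699 to 819 nucleotides, among which *myog* and *myf5* fall, were centred on a log2 fold change of 0.24 (median) in this comparison. Within these 768 genes *myog* had the lowest log2 fold change and *myf5* the second lowest.

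Against WT the same 3 genes were also lower in *btl*. *myog* was 5.82-fold lower (interval 3.45 to 10.5), *myf5* 4.33-fold (interval 2.80 to 6.99) and the MyoD homolog 3.30-fold (interval 2.18 to 5.17). Of all genes, 2.56% were lower by 2-fold or more in *btl* than in WT and 1.8% were higher. The 3 phenotypically normal libraries differed from one another by log2 fold changes of at most 0.21 for *myf5*, 0.57 for the MyoD homolog and 0.89 for *myog*, so that none was changed 2-fold. Of all genes 0.82% were 2-fold lower and 0.892% higher in *stl*-sibling against WT, 0.697% and 0.664% in *btl*-sibling against WT, and 1.04% and 1.07% in *stl*-sibling against *btl*-sibling. Each change in *btl* was larger than these, against the sibling and against WT.

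In *stl*, compared with its siblings to learn how muscle genes differ in the *noto* mutant, *myog* and the MyoD homolog were lower and *myf5* less so. *myog* was covered by 88 reads in *stl*, against 256 in *stl*-sibling, which was 2.83-fold lower in CPM (interval 2.22 to 3.65). The MyoD homolog was covered by 78.1 reads in *stl*, against 202 in *stl*-sibling, which was 2.52-fold lower (interval 1.93 to 3.32). *myf5* was covered by 119 reads in *stl*, against 176 in *stl*-sibling, which was 1.44-fold lower (interval 1.13 to 1.83), and its interval did not overlap those of the other genes. The log2 fold changes were -1.44 for *myog*, -1.27 for the MyoD homolog and -0.50 for *myf5*, at ranks 63, 88 and 503 of 15362. *myog* was the one member lower by 2-fold or more, as were 0.996% of all genes, and 0.215% of genes were higher by that much.

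The size of the difference depended on the normal library it was set against. In *stl*-sibling against WT the log2 fold change was 0.89 for *myog* (interval 0.61 to 1.23), 0.57 for the MyoD homolog (interval 0.26 to 0.92) and 0.21 for *myf5* (interval -0.11 to 0.55). Set against WT, the log2 fold change in *stl* was -0.56 for *myog* (interval -0.99 to -0.18), -0.71 for the MyoD homolog (interval -1.17 to -0.33) and -0.30 for *myf5* (interval -0.67 to 0.05). Set against *btl*-sibling, it was -0.98 for *myog*, -1.01 for the MyoD homolog and -0.49 for *myf5*. None of them was 2-fold lower against WT, whereas 1.52% of all genes were, and 1.2% were 2-fold higher. For *myog* the value against WT was smaller in size than the difference between *stl*-sibling and WT.

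**Figure D2:**
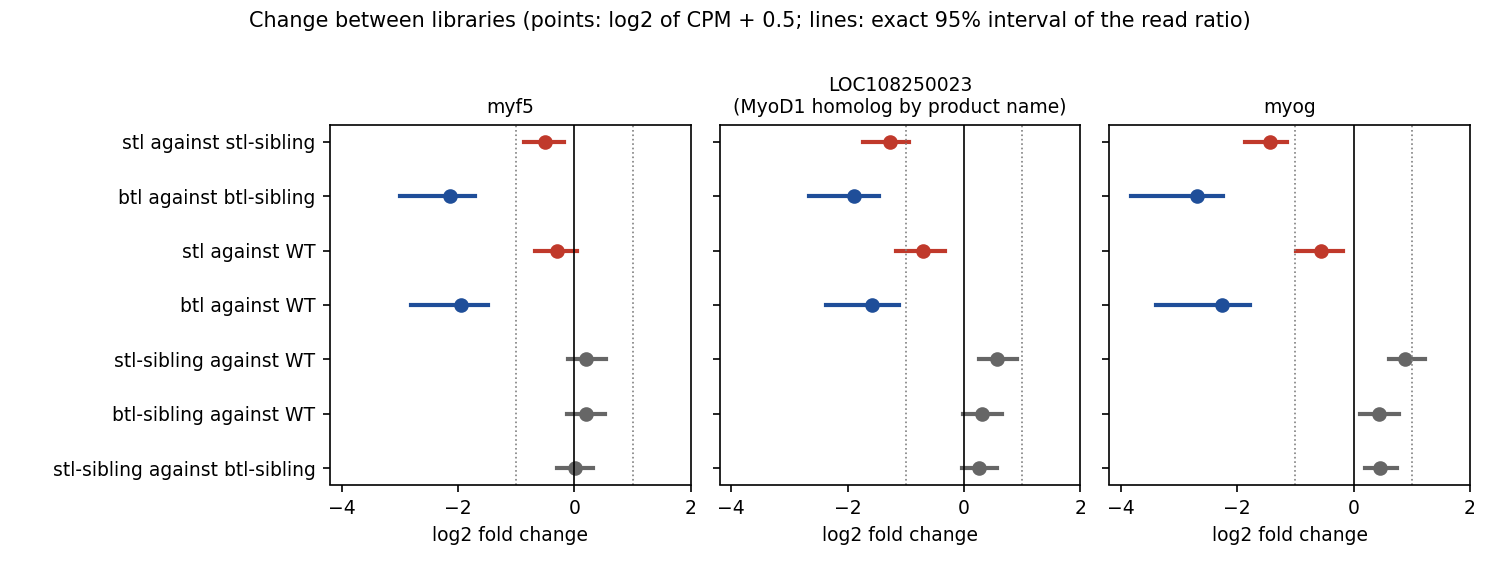
Log2 fold changes (horizontal axes, CPM after adding 0.5) of *myf5*, the MyoD homolog and *myog* in 7 comparisons (rows), with exact 95% intervals of the read ratio as lines and dotted lines at a 2-fold change. Both *btl* rows lie left of the 2-fold line for each gene, while *stl* lies left of it only for *myog* and the MyoD homolog, and only against *stl*-sibling.

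Early and late members were then compared within each library, where no scaling between libraries is needed. As *myf6* had at most 5 reads in a library, this was in effect *myog* against *myf5*, 1 gene on each side. Late members (*myog* and *myf6*) made up 43.9% of the reads of the 3 members in *stl* (interval 37.1% to 50.8%), against 59.4% in *stl*-sibling (interval 54.7% to 64.1%). They made up 41.5% in *btl* (interval 26.3% to 57.9%), against 51.6% in *btl*-sibling (interval 46.4% to 56.7%), and 47.8% in WT (interval 41.8% to 53.9%). The late share was therefore lower in *stl* than in its sibling beyond counting error, and the interval of *btl* overlapped those of all other libraries. Per coding sequence length, the log2 ratio of late to early members was lower by 0.90 in *stl* than in *stl*-sibling (interval -1.41 to -0.41). In *btl* it differed from *btl*-sibling by -0.58, with an interval of -1.62 to 0.42 that includes 0.

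The shift in *stl* was smaller against WT than against its sibling. Against WT the log2 ratio differed by -0.22 in *stl* (interval -0.77 to 0.31). Between the phenotypically normal libraries *stl*-sibling and WT it differed by 0.68 (interval 0.22 to 1.13), so a shift of this kind also separated normal pools. When the MyoD homolog was added to the early genes, a choice made after the annotation was searched, the difference in *stl* against its sibling was -0.55 (interval -0.97 to -0.10) and in *btl* -0.72 (interval -1.65 to 0.13).

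Pairs of genes showed which gene the ratio turned on. Reads of *myog* per read of *myf5* were 0.739 in *stl*, against 1.46 in *stl*-sibling, and 0.667 in *btl*, against 1.06 in *btl*-sibling, with 0.896 in WT. Reads of *myog* per read of the MyoD homolog were 1.13 in *stl*, against 1.27 in *stl*-sibling, a log2 difference of -0.17 whose interval (-0.70 to 0.37) includes 0. Reads of the MyoD homolog per read of *myf5* were 0.656 in *stl*, against 1.15 in *stl*-sibling, a log2 difference of -0.81 (interval -1.34 to -0.28). Against WT the same log2 difference in *stl* was -0.44, with an interval that includes 0 and reaches 0.12. In *btl* the ratio of the MyoD homolog to *myf5* was 1.17, against 0.964 in *btl*-sibling, a log2 difference of 0.28 with an interval of -0.62 to 1.19.

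**Figure D3:**
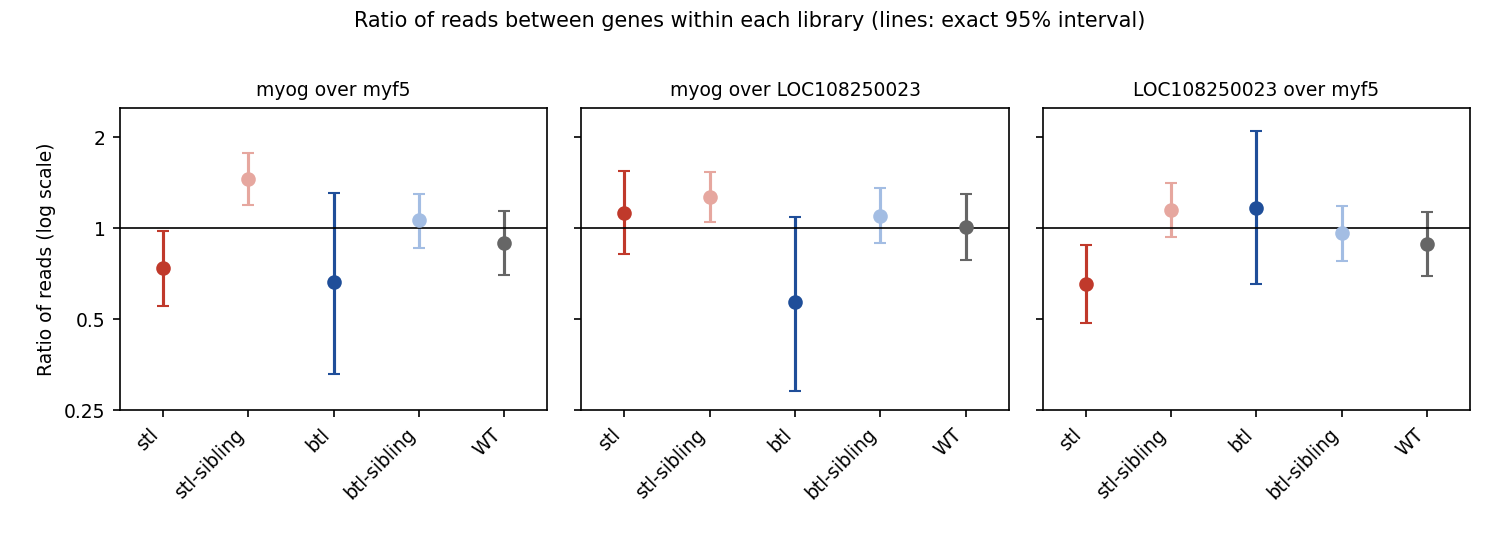
Ratio of reads between pairs of genes (vertical axes, log scale) within each of the 5 libraries (horizontal axes), with exact 95% intervals as lines. *stl* lies below *stl*-sibling for *myog* over *myf5* (0.739 and 1.46) and for the MyoD homolog over *myf5* (0.656 and 1.15), and the wide intervals of *btl* overlap 1 in each panel.

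Genes that act upstream of the myogenic factors in paraxial mesoderm had smaller changes than *myog* against the siblings. Of 22 such genes listed, 15 were in the annotation and 13 were kept. In *stl* 0 of the 13 were 2-fold changed against the sibling, and their median log2 fold change was 0.04, beside -0.0049 over all genes. Of all genes 0.996% were 2-fold lower in *stl* and 0.215% higher. In *btl* 2 of the 13 were at least 2-fold lower, 12 were below 0, and the median was -0.62, beside -0.02 over all genes. Of all genes 3.27% were 2-fold lower in this comparison, and 2127 of 15362 in TPM. Against WT 1 of the 13 was 2-fold lower in *btl* (*tcf15*) and the median was -0.27, while *btl*-sibling itself had a median of 0.28 against WT. In *stl* against WT the median was 0.31, beside 0.34 for *stl*-sibling against WT. In that comparison of *stl*, *pax7a* (0.67) differed by more in size than *myog* (-0.56). The lowest in *btl* against the sibling were *tcf15* (paraxis, a factor of forming somites) at -1.30, *pax7a* (a factor of muscle progenitors) at -1.09 and *foxc1a* (a factor of paraxial mesoderm) at -0.94. *tcf15* had 15 reads in *btl*, against 66 in *btl*-sibling. *prdm1a*, which directs slow fibre fate in zebrafish, was the highest of the list at 0.05.

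The E proteins, with which the myogenic factors pair on DNA, were at lower values in *btl* than in its sibling, but none reached 2-fold. In *btl* against *btl*-sibling the log2 fold change of *tcf12* was -0.60, that of *tcf3a* -0.48 and that of *tcf3b* -0.35. In *stl* against *stl*-sibling the same genes lay between 0.07 and 0.15. Against WT the values in *btl* were smaller in size, at -0.30 for *tcf12*, -0.17 for *tcf3a* (interval -0.37 to 0.03) and -0.22 for *tcf3b*. The normal *btl*-sibling library was itself at 0.30, 0.31 and 0.12 against WT, and *stl*-sibling at 0.61 for *tcf12*. Among 14 kept genes for inhibitors of myogenic factors, 0 were 2-fold changed in either mutant against its sibling, with medians of -0.03 in *stl* and 0.04 in *btl*. Of all genes 0.996% were 2-fold lower and 0.215% higher in *stl*, and 3.27% and 4.33% in *btl*. The highest in *btl* was *id3*, an Id protein that keeps E proteins from pairing, with 70.2 CPM in *btl*, against 36.8 CPM in *btl*-sibling. Its log2 fold change was 0.92 (interval 0.75 to 1.11), without removal of the trend over coding sequence length. The lowest in *btl* were the repressor genes *snai1b* (-0.55) and *snai2* (-0.39) and *mdfi*, whose product binds myogenic factors in the cytoplasm (-0.52). *mdfi* had 26 reads in *btl*, and its interval (-1.31 to 0.10) includes 0. Against WT *snai1b* was at -0.18 (interval -0.46 to 0.09) and *snai2* at -0.42 (interval -0.75 to -0.14). The related *snai1a* went the other way, at 0.73. In *btl* against its sibling 7 of the 14 genes lay below 0, beside a median of -0.02 over all genes.

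MEF2 genes and cofactors, which act together with myogenic factors, were in part lower in both mutants than in their siblings. Of 8 kept genes, 3 were at least 2-fold lower in *stl* against its sibling (*vgll2b*, *smyd1b* and *mef2d*) and 3 in *btl* (*mef2d*, *vgll2b* and *mef2cb*). The shares over all genes were 0.996% in *stl* and 3.27% in *btl*. Against WT 1 of the 8 was at least 2-fold lower in *stl* (*smyd1b*) and 1 in *btl* (*vgll2b*). The shares over all genes were then 1.52% and 2.56%. *mef2d* was covered by 119 reads in *stl*, against 253 in *stl*-sibling, and by 59 in *btl*, against 287 in *btl*-sibling. The log2 fold changes of *mef2cb* were -0.81 in *stl* and -1.17 in *btl*, and those of *vgll2b*, a cofactor of TEAD proteins, were -1.77 and -1.43. The chromatin remodelling gene *smarcd3b* was the highest of the list in *btl*, at -0.10 in *btl* and 0.05 in *stl*.

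Genes for myoblast adhesion and fusion were mixed. Of 6 kept, 2 were at least 2-fold lower in *btl* against its sibling and 0 in *stl*, beside 3.27% and 0.996% of all genes. *cdh15* (M-cadherin, a myoblast adhesion protein) had 5.02 CPM in *btl*, against 32.2 CPM in *btl*-sibling. Its log2 fold change was -2.57 (interval -3.17 to -2.22). In *stl* it was at -0.84 against the sibling (interval -1.08 to -0.64) and at -0.15 against WT (interval -0.40 to 0.10). *kirrel3l*, a cell adhesion gene of fusing fast fibres in zebrafish, was at -1.14 in *btl* and 0.06 in *stl*, and *elmo1* was at -0.42 and -0.09. *jam3b* had 0.04 in *btl*, the highest of the list.

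Genes of the differentiated fibre, the targets of *myog* and MyoD in other vertebrates, were lower in both mutants than in their siblings. Of 30 kept sarcomere, calcium handling and energy genes, 18 were lower by 2-fold or more in *stl* against its sibling (median log2 fold change -1.03) and 15 in *btl* (median -1.20). In these comparisons 0.996% and 3.27% of all genes were 2-fold lower, and the medians over all genes were -0.0049 and -0.02. In *btl* the lowest were *atp2a1l* (a calcium pump of the sarcoplasmic reticulum) at -2.97, *neb* (nebulin) at -2.62 and *actn3b* (an alpha-actinin of fast fibres) at -2.51. *casq1b* was the highest, at 0.75 in *btl* and -0.25 in *stl*. Several of these genes, such as *actc1a* and *casq2*, are active in heart as well. With WT as the reference, 4 of the 30 were at least 2-fold lower in *stl* (median -0.40) and 16 in *btl* (median -1.07). The shares over all genes were 1.52% and 2.56%. In *stl*-sibling against WT 4 of the 30 were at least 2-fold higher and 1 was lower, beside 0.892% and 0.82% of all genes. Their median was 0.62, so the high *stl*-sibling levels of *myog* came with high levels of fibre genes.

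The summed CPM of these 30 genes gave the level of fibre gene RNA in each library. It was 942 in *stl*, against 2005 in *stl*-sibling, 547 in *btl*, against 1490 in *btl*-sibling, and 1195 in WT. This sum does not measure the number of muscle cells. Of it, *actc1a* gave 123 CPM in *btl* and 213 CPM in *btl*-sibling, and *acta1b* 76.8 CPM and 298 CPM. Per 1000 CPM of that sum, *myog* had 7.88 CPM in *stl*, against 10.5 in *stl*-sibling. It had 3.50 in *btl*, against 10.2 in *btl*-sibling, and 9.32 in WT. *myf5* had 10.7 in *stl*, against 7.19 in *stl*-sibling, and 5.25 in *btl*, against 9.57 in *btl*-sibling, with 10.4 in WT. The MyoD homolog had less in *stl* (6.995) than in *stl*-sibling (8.28), and 6.12 in *btl*, against 9.23 in *btl*-sibling, with 9.25 in WT. For *myog* the interval of *btl* (up to 5.68, counting error of *myog* only) lay below those of the other libraries. For *myf5* and the MyoD homolog the interval of *btl* overlapped that of at least 1 other library.

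At the neuromuscular synapse, acetylcholine receptor genes are known targets of myogenic factors. Of 9 kept synapse genes, 6 were at least 2-fold lower in *btl* against *btl*-sibling and 2 in *stl* against *stl*-sibling. The shares over all genes were 3.27% and 0.996%. Against WT 6 of the 9 were at least 2-fold lower in *btl* and 1 in *stl*, beside 2.56% and 1.52% of all genes. *musk*, the receptor kinase that organises the synapse, had 1.91 CPM in *btl*, against 9.17 CPM in *btl*-sibling, and 3.04 CPM in *stl*, against 9.53 CPM in *stl*-sibling. The receptor subunit genes *chrne* and *chrnb1l* had log2 fold changes of -1.86 and -1.82 in *btl* and of -0.89 and -0.94 in *stl*. In *stl* against WT they were at -0.51 and -0.63, with intervals that include 0. *chrnb1l* had 6 reads in *btl* and 19 in *stl*. *lrp4*, which is also active outside muscle, was at -0.21 in *btl* and 0.09 in *stl*.

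Lists of other tissues showed where the embryos were not alike. In the presomitic mesoderm, from which somites form, 3 of 11 genes were at least 2-fold higher in *btl* than in its sibling (*msgn1*, *her7* and *tbxta*). In the same comparison 1 was at least 2-fold lower (*tbx6*, at -1.62), beside 4.33% of all genes higher and 3.27% lower. *wnt3* was at -0.96 and *aldh1a2* at -0.37. In *stl* 1 of the 11 was at least 2-fold lower, as were 0.996% of all genes. That gene was *tbxta* (-1.64), which is also a factor of notochord and tail bud. The summed level of this list, much of it *msgn1* itself in *btl*, was 599.9 CPM in *btl*, against 253.8 CPM in *btl*-sibling, and 253.4 CPM in *stl*, against 262.8 CPM in *stl*-sibling. Without *msgn1* the sum was 341.4 CPM in *btl*, against 241.5 CPM in *btl*-sibling. Of these sums *tbxta* gave 68.4 CPM in *btl* and 24.0 CPM in *btl*-sibling, and *dld* gave 126.6 CPM and 88.7 CPM. The part of this list in the lower levels of the myogenic factors was not tested.

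Heart muscle, which forms without the myogenic regulatory factors, was measured for comparison. Of 11 kept heart genes 0 were 2-fold lower in either mutant, beside 0.996% of all genes in *stl* and 3.27% in *btl* against the siblings. In *stl* 8 of 11 lay below 0 against the sibling, with a median of -0.13, and in *btl* 11 of 11 lay above 0 against the sibling, with a median of 0.31. Against WT 8 of 11 lay above 0 in *btl*, and *btl*-sibling itself lay below WT for 10 of 11. Over all genes the median log2 fold change was -0.0049 in *stl* and -0.02 in *btl* against the siblings. Against WT it was 0.0028 in *btl* and 0.0027 in *btl*-sibling. *myl7*, a myosin light chain of heart, was at 1.45 against the sibling and *tnnt2a* at 1.01 (0.62 against WT), while *myh6* (0.08), *ryr2a* (0.12) and *tbx20* (0.16) were close to their sibling levels. Of 7 kept genes of sclerotome and dermis, 4 were at least 2-fold lower in *btl* and 0 in *stl*, beside 3.27% and 0.996% of all genes. The 4 were *col5a2a* at -1.57, *col5a1* at -1.54, *col1a1a* at -1.51 and *col1a2* at -1.41. Collagen genes are similar in sequence, so their reads could have been divided among them. *pax1a*, a sclerotome factor, was at -0.38 in *btl*. Of 15 kept neural genes 0 were 2-fold changed in either mutant, with medians of 0.09 in *stl* and -0.05 in *btl*. Against the siblings, 0.996% of all genes were 2-fold lower and 0.215% higher in *stl*, and 3.27% and 4.33% in *btl*. The lowest neural genes in *btl* were *elavl3* (-0.96), *nkx6.1* (-0.50) and *olig2* (-0.23), and the highest was *isl2a* (0.57). Every kept gene of these lists had reads in each of the 5 libraries.

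**Figure D4:**
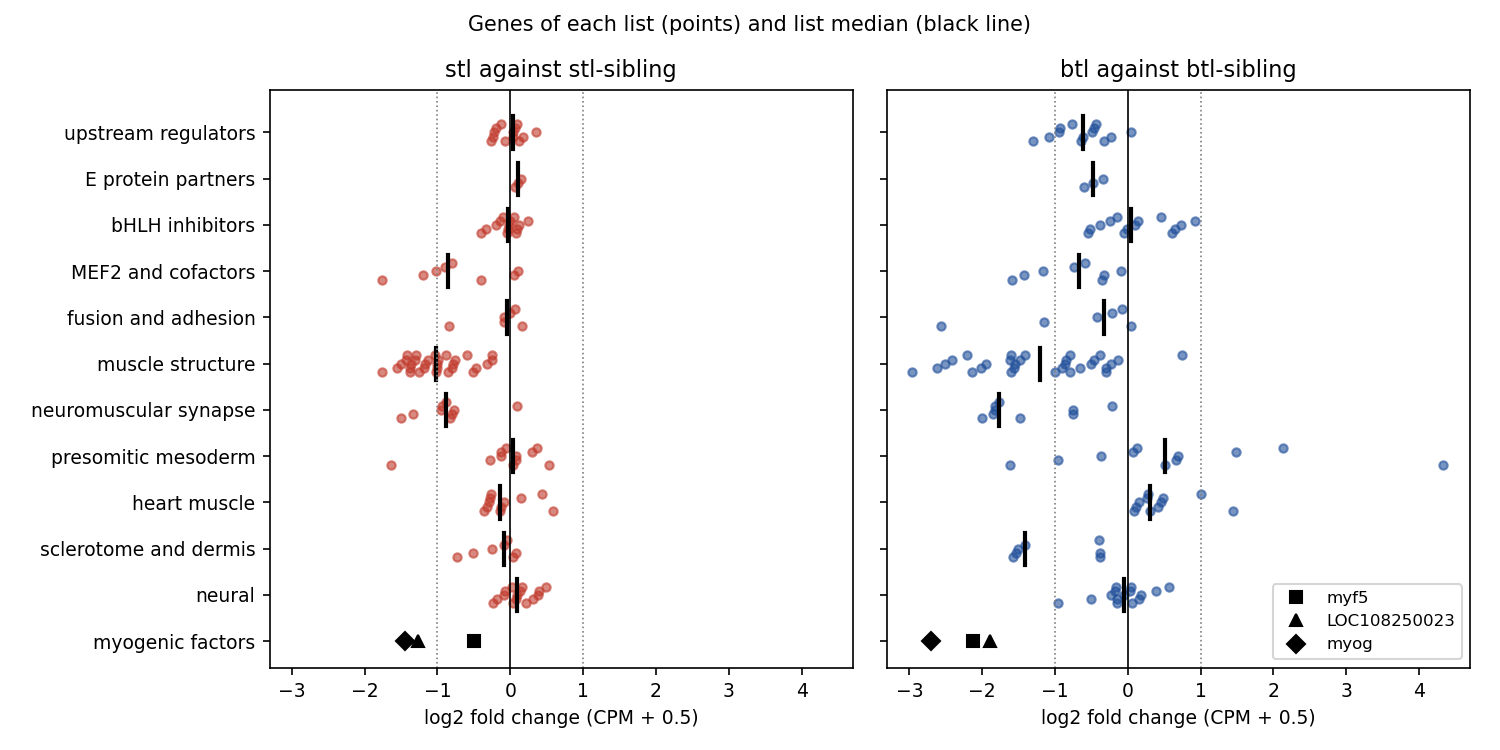
Log2 fold changes (horizontal axes) of the genes in each list (rows, points) and their median (black line), with the myogenic factors in the bottom row, for *stl* against *stl*-sibling and *btl* against *btl*-sibling. *myog* lies at -1.44 and -2.70 and *myf5* at -0.50 and -2.13, beside medians of -1.03 and -1.20 for muscle structure and 0.04 and -0.62 for upstream regulators.

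Genes whose levels over the 5 libraries were most like those of each factor were found by the root mean square difference of centred log2 CPM. For *myog* these were *actn3b* (0.11), *LOC108234093* (0.12, a collagen alpha-1(XIX) chain) and *LOC108247384* (0.17, a myosin heavy chain, whose reads may be shared with related genes). For the MyoD homolog they were *col11a1a* (0.09), *LOC108251468* (0.10, a member of solute carrier family 2) and *srl* (0.10, sarcalumenin, a calcium-binding protein of muscle). For *myf5* they were *zgc:174935* (0.13, product name eukaryotic translation initiation factor 5B), *cdh13* (0.15, cadherin-13) and *chrne* (0.15). Among the 15361 other genes, the MyoD homolog was 63rd nearest to *myf5* and 29th nearest to *myog*, and *myf5* was 37th nearest to *myog*. In the other direction, *myog* was 151st nearest to *myf5* and 104th nearest to the MyoD homolog, and *myf5* was 65th nearest to the MyoD homolog. These ranks rest on 5 libraries and on few reads in *btl*, such as 6 for *LOC108234093* and 9 for *chrne*. No interval was computed for them. *actn3b* had 286 reads in *stl*, against 727 in *stl*-sibling, and 55 in *btl*, against 512 in *btl*-sibling, with 343 in WT.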

How the data were processed

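RNA-seq of 5 pools of whole embryos was trimmed and quantified by the authors with Salmon (version 1.5.0), which took as its targets the annotated coding sequences of ASM164957v2. The authors deposited the resulting estimated count and TPM of every coding sequence in each library. A joined count table holds the same values (largest difference 0), and deposited RPKM and NOISeq comparison tables (log2 ratios, differences and probabilities) were not used, apart from the product names in one of them.

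Of 37181 coding sequences, 37146 were assigned through protein accessions to 22090 genes, and counts were summed per gene. CPM were scaled by TMM (edgeR 4.0.16, R 4.3.3), with factors of 0.914 to 1.05. A pseudocount of 0.5 CPM preceded each log2 fold change, and comparisons across genes kept the 15362 genes whose mean reached 2 CPM. With 1 library per group a mutant and its reference were compared without a test. Precision is given as exact 95% intervals: Poisson for the reads of a library (scaled to TPM for levels), Clopper-Pearson for shares and for ratios of reads between libraries or genes, and conditional odds ratios for changes of a ratio. Reads were rounded to whole numbers for intervals. Ratios of late to early members used reads per effective length. The computations were tested on simulated data. Python 3.11.15, pandas 2.3.3, numpy 2.4.6, scipy 1.17.1 and matplotlib 3.10.9 were used, and DESeq2 1.42.0 gave alternative size factors.

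The members, lists and rules were chosen with earlier results of these data known, and the lists rest on textbook knowledge of fish muscle. Named genes are the members, from each list the 3 lowest and the 1 highest in *btl* against its sibling, and the 3 genes nearest to each factor. Some further genes, among them *smyd1b*, *her7*, *tbxta*, *tnnt2a* and *col1a2*, were named after their values were seen. *myod1* is not a symbol of the annotation, so that the MyoD homolog was added after the annotation was searched. Sequences were not analysed here.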

Additional observations from a re-analysis of the deposited data

Results flagged for a closer look

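In 1 gene of the lists the mutants differed in opposite directions by at least 2-fold, against the sibling and against WT. *tbxta*, a T-box factor of notochord and tail bud, had log2 fold changes of -1.64 in *stl* against its sibling and -1.61 against WT, and of 1.49 in *btl* against its sibling and 1.64 against WT. Whether *stl* and *btl* differ here was not tested, since each has 1 library.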

How the results depend on the processing

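Each change of the 3 readily detected factors was computed under 9 alternatives (library size alone, DESeq2 size factors, TPM, pseudocounts of 0.1 and 2 CPM, 3 other references, and removal of the trend over coding sequence length), and all of them kept a negative sign. In *btl* against its sibling the log2 fold changes lay between -3.22 and -2.13 for *myog*, -2.70 and -1.74 for *myf5* and -2.42 and -1.56 for the MyoD homolog. TPM moved the median of all genes in *btl* by -0.55 and library size alone by -0.22, and relative to that median *myog* was at -2.67 in TPM. The value of *myog* in *btl* left its counting interval only with a pseudocount of 2 CPM (-2.13). In *stl*, *myog* left its interval with WT (-0.56), the sibling of the other line (-0.98) or the mean of the 3 normal libraries (-1.04) as the reference, and the MyoD homolog with WT (-0.71). The log2 ratio of late to early members in *stl* was -0.22 with WT as the reference and -0.16 for *myog* against the MyoD homolog alone, an alternative chosen after seeing the data. With WT as the reference 4 muscle structure genes were at least 2-fold lower in *stl*, and 23 of 30 lay below 0, against 30 of 30 with the sibling. The medians over all genes were -0.017 with WT and -0.0049 with the sibling. Of the genes that changed sign, *atp2a1l* (0.10) and *ckmb* (0.077) had been 2-fold lower. At a 4-fold threshold 0 of the 30 muscle structure genes were lower in *stl* and 7 in *btl* against the siblings. The share of all genes past 4-fold was not computed, so these counts have no background. The planned ratios of *myog* to *myod1* and without *myf5* could not be computed, because *myod1* is not a symbol of the annotation. No paired analysis was possible because each group has 1 library and the labels give no replicate numbers. A fit of both mutants against both siblings with line as a block was not run, since it would treat different mutations as replicates. The low number of reads in *btl*, 16 to 28 for each of the 3 factors, limits what can be said of their ratios there.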

Other observations

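The MyoD homolog has 2 annotated coding sequences, of 831 (isoform X1) and 804 (isoform X2) nucleotides, between which Salmon divided the reads. Isoform X1 took 14.8 of 78.1 reads in *stl* (19.2%, exact interval 11.2% to 29.7%), against 22.1 of 202 in *stl*-sibling (10.9%, interval 6.95% to 16.0%). It took 0 of 28 reads in *btl* (interval up to 12.3%), against 39.0 of 177 in *btl*-sibling (22.0%, interval 16.2% to 28.9%), and 9.73 of 128 in WT (7.81%, interval 3.81% to 13.9%). These intervals treat the estimated division of reads as if it had been observed. They leave out the uncertainty of that division and are therefore too narrow. The intervals of *btl* and *btl*-sibling did not overlap, but this does not show a difference in isoform use beyond counting error. Those of the normal libraries WT and *btl*-sibling did not overlap either. *myf5* has a single coding sequence, yet its estimated reads were not whole numbers in *stl*-sibling (175.6) and *btl*-sibling (183.6), so a part of its reads there was shared with another coding sequence.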
